A study of Homo sapiens with 6 samples.

Results

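The genes described here are nuclear genes named for oxidative phosphorylation, most of which encode its subunits. They were taken from the gene symbols of the count tables by name: every symbol that begins with NDUF, UQCR, ATP5 or COX followed by a digit from 4 to 8, together with SDHA, SDHB, SDHC, SDHD, CYC1 and CYCS. The rule matched 98 of the 23368 symbols listed, 2 of them were pseudogenes and were left out, and 96 genes remained. Their RNA was measured in NB4, a widely used cell line of human acute promyelocytic leukemia, which was left not treated or exposed for 24 h to 10 µM maltonis, a synthetic hydroxypyrone derived from maltol. Both groups were kept in RPMI 1640 medium with fetal bovine serum, and each was sequenced from 3 biological replicates as stranded total RNA libraries. Expression was therefore compared in a single cell line, at a single dose and at a single time, and RNA levels give no measure of protein or of respiration.

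Oxidative phosphorylation is carried out in the inner mitochondrial membrane. Complex I (NADH dehydrogenase) and complex II (succinate dehydrogenase) pass electrons to ubiquinone, complex III passes them on to cytochrome c, and complex IV (cytochrome c oxidase) hands them to oxygen. Complexes I, III and IV pump protons, and complex V (ATP synthase) uses the resulting gradient to make ATP. Complex II pumps none and is also an enzyme of the tricarboxylic acid cycle, and unlike the other complexes it has no subunit encoded in mitochondrial DNA. The genes of the mitochondrial genome were not among the symbols of the tables, so that only the nuclear side of these complexes is described. The promoters of many of these nuclear genes are known to hold sites for the factor NRF1 and for ETS family factors such as GABP.

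Of the 96 genes, 37 encode subunits of complex I, 4 are the complex I assembly factors NDUFAF1 to NDUFAF4, 4 belong to complex II, 10 to complex III, 19 to complex IV and 18 are named for complex V. Cytochrome c is encoded by 1 gene, CYCS. The other 3 genes met the rule only by their symbols: COX4NB is an older name of EMC8, a gene of the endoplasmic reticulum membrane complex that lies next to COX4I1, and ATP5J2-PTCD1 and NDUFC2-KCTD14 are readthrough loci.

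The promoters of 4 genes are shown because they carry the motifs counted further on, in 3 genes whose RNA fell (NDUFA9, ATP5I and UQCR11) and in 1 whose RNA did not pass the test (SDHA). The sequences are RefSeq, build GRCh38.p14, each a stretch of 160 bases that ends before the annotated start of transcription, written 5′ to 3′ on the strand of the gene. Capitals mark matches on either strand to the NRF1 core (GCGCA, any base, then GCGC), the ETS core CCGGAAG, the YY1 core AANATGGC or the E-box CACGTG. They lie at chr12:4648947-4649106 on the plus strand for NDUFA9, chr4:674339-674498 on the minus strand for ATP5I, chr19:1605491-1605650 on the minus strand for UQCR11 and chr5:218081-218240 on the plus strand for SDHA.
NDUFA9: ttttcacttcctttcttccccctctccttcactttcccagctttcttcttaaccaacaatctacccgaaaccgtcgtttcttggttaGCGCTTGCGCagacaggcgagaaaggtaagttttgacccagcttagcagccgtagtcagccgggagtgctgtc
ATP5I: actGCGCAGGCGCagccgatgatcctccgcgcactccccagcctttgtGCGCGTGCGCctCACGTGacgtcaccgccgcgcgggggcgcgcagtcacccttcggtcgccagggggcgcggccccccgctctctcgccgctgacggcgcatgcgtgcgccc
UQCR11: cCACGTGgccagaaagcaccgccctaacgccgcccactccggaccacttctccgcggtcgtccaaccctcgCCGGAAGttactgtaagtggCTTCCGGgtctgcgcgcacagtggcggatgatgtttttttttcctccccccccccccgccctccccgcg
SDHA: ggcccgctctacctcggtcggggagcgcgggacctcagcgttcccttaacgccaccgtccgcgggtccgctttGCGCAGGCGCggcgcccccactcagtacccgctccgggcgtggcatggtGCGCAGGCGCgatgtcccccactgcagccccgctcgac
Within the printed stretch, NDUFA9 held a single NRF1 core, whose first base lay 80 bases before the start. ATP5I held NRF1 cores 219 and 174 bases before its start and an E-box at 162. UQCR11 held an E-box at 187 and ETS cores at 117 and 97 bases. SDHA, the catalytic subunit of complex II, held NRF1 cores at 166 and 117 bases. The longer windows counted further on, which run past the start, held 4 NRF1 cores for SDHA, 2 NRF1 cores for UQCR11, an ETS core for ATP5I and a YY1 core for NDUFA9.

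Total counts per library ran from 18492154 to 38205483. A count of 3, taken as the floor of detection, corresponded, in counts-per-million (CPM) with TMM scaling, to a level between 0.0828 and 0.16. This floor reflects counting error alone. The library names carry a code of unstated meaning that sets replicate 1 of each group (code A) apart from replicates 2 and 3 (code B), so both codes hold both conditions. All 9 NB4 markers examined were detected, with a summed level of 14692 to 17148 CPM in not treated and 9052 to 9617 CPM in maltonis-treated libraries. Most of this sum came from MPO, myeloperoxidase, with means of 14612 CPM in not treated and 7425 CPM in maltonis-treated libraries. Of the 9 markers, 6 fell, 2 rose and 1 was not called in the test described below. MPO fell most, by 0.98 on the log2 scale, whereas CTSG, cathepsin G, rose by 2.34. Of 10 markers of other blood or epithelial cells, 5 were above the floor in every library, others, MS4A1 and HBB among them, were at 0 in all of them, and the summed level was 98.7 to 105 CPM in not treated and 54.3 to 57.9 CPM in maltonis-treated libraries. The 4 that could be tested all fell, from −1.51 (CD3D) to −0.42 (NKG7). The part of these shifts in the results was not tested.

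RNA of the oxidative phosphorylation genes was mostly lower in maltonis-treated cells, by modest amounts. Of the 87 genes with enough counts to be tested, 57 fell and 4 rose at a false discovery rate (FDR) under 0.01 in edgeR's quasi-likelihood test, and 26 were not called. The share called lower was 65.5%, beside 32.1% of all 13209 genes tested, and the share called higher was 4.6%, beside 31.9%. The median log2 fold change was −0.44 over the 87 genes and 0.01 over all genes tested. Because CPM values are relative to the RNA of each library, less RNA per cell and fewer cells carrying it cannot be told apart here.

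The decreases were spread over many genes and were mostly small. Log2 fold changes ranged from −2.43 to 1.09, and the middle of the distribution, between its quartiles, ran from −0.91 to −0.17. A change of more than 2.5-fold, the size criterion of the study, was reached by 7 genes that fell (8.05%, beside 10.4% of all genes tested) and by none that rose (0, beside 9.96%). Of the 57 genes called lower, 15 (26.3%) were at −1 or below, beside 45.5% of the 4239 genes called lower in the whole table. The values of the 2 groups did not overlap in 70 of the 87 genes (80.5%, beside 76.6% of all genes tested), 63 of them lower (beside 37.8% of all genes tested) and 7 higher with maltonis (beside 38.8%). The log2 fold change, taken with its sign, had almost no rank relation to the level of a gene in not treated cells. Spearman's rho was −0.07 across the 87 genes, which are not independent replicates and were measured in the same 6 libraries.

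Within code A, where each group has 1 library, the median log2 difference of the 87 genes was −0.52, and within code B the median log2 fold change was −0.40. Both the 57 genes called lower and the 4 called higher had the same direction in code A. Scaling on total counts moved the median of all genes to 0.13 and that of the 87 genes to −0.32, a shift that a change of scaling gives to all genes alike.

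**Figure D1:**
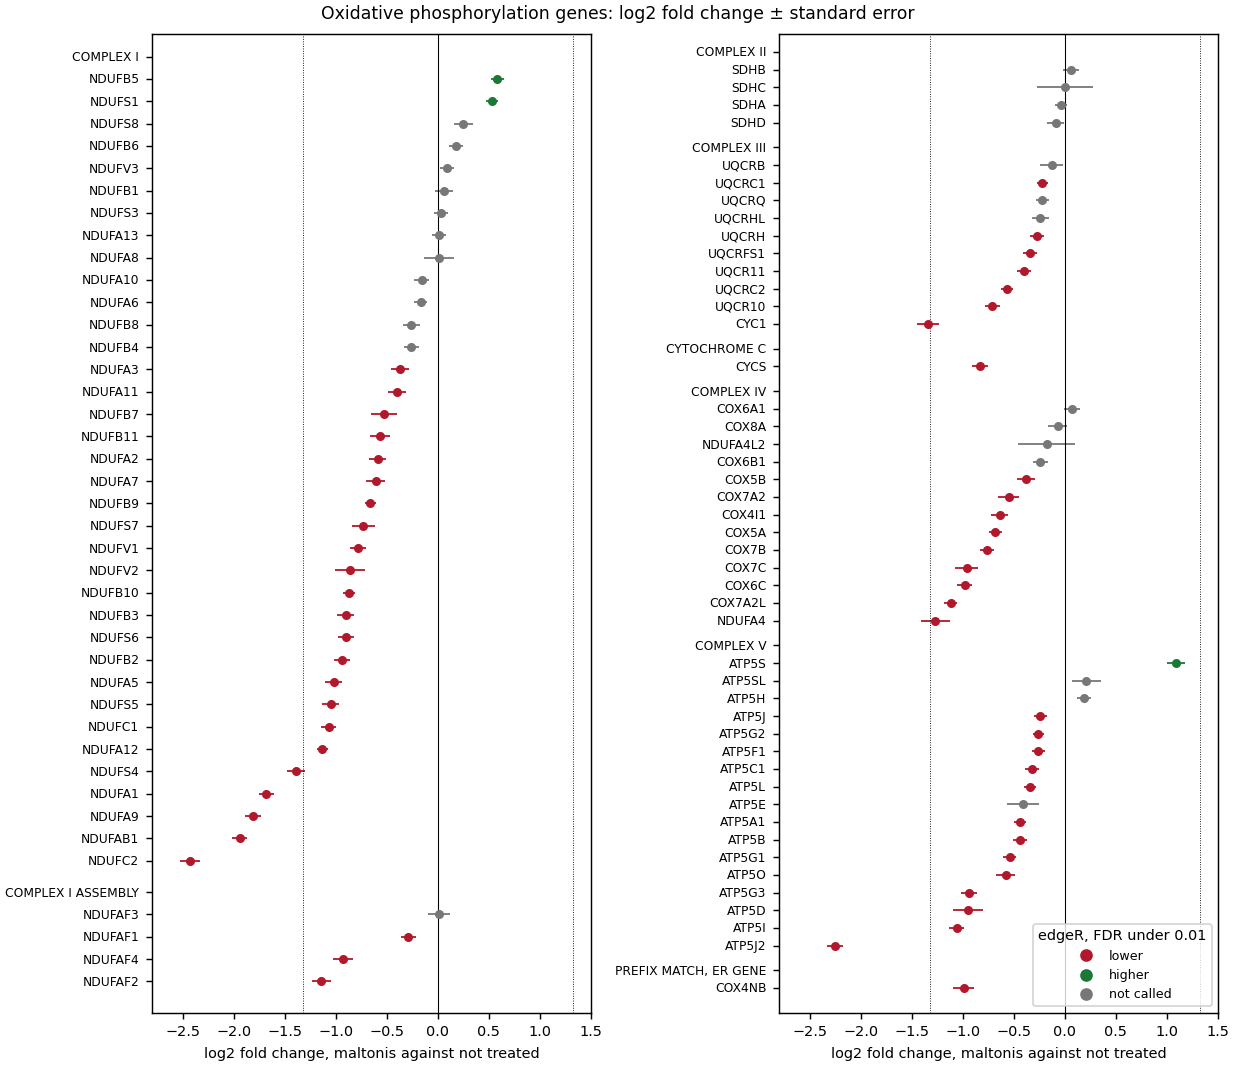
Log2 fold change of 86 of the 87 tested genes, maltonis against not treated (x axis), by complex, with bars for the standard error; colors give the call at an FDR under 0.01 and dotted lines mark 2.5-fold changes in either direction. Most points of complexes I, III, IV and V lie left of 0, the 4 genes of complex II lie between −0.09 and 0.06, and 7 genes lie beyond the left dotted line.

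Complex I held 5 of the 7 genes that fell by more than 2.5-fold, NDUFC2 lowest among them. Of its 37 subunits, 23 fell, 3 rose and 11 were not called, with a median log2 fold change of −0.59. The summed level of the 37 genes was 4189, 4058 and 3814 CPM in not treated replicates 1, 2 and 3 and 3025, 2970 and 3086 CPM with maltonis, or 75.3% of the not treated mean. The 7 core subunits, which carry the redox centers and are conserved from bacteria, and the 30 supernumerary subunits, which surround them, gave different counts. Among core subunits 3 fell (NDUFV1, NDUFV2 and NDUFS7) and 2 rose, NDUFS1 among them, with a median of 0.03, whereas 20 supernumerary subunits fell and 1, NDUFB5, rose, with a median of −0.60. The difference between these classes was not tested.

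NDUFC2, a small membrane subunit, was at 78.0, 72.0 and 74.9 CPM in not treated replicates 1, 2 and 3 and at 11.8, 15.2 and 14.5 CPM with maltonis. The groups lay far apart, with a log2 fold change of −2.43 ± 0.10 (SE, n = 3 per group; edgeR, FDR = 1.64e-07). Its value is uncertain where counting met the overlapping readthrough locus NDUFC2-KCTD14, which had at most 1 count in any library. NDUFAB1 encodes the mitochondrial acyl carrier protein, which also serves lipoic acid synthesis and iron-sulfur cluster assembly. It was at 134, 132 and 124 CPM in not treated libraries and 30.7, 35.2 and 35.3 CPM in the maltonis group. The maltonis mean was 25.9% of the not treated mean (log2 fold change −1.94 ± 0.0751, FDR = 1.21e-07).

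NDUFA9, a subunit near the junction of the peripheral and the membrane arm whose promoter is printed above, was at 105, 101 and 92.1 CPM in the not treated libraries, against 27, 27.9 and 29.8 CPM with maltonis. This corresponds to a log2 fold change of −1.81 ± 0.0750 with no overlap of the groups (edgeR, FDR = 1.65e-07). NDUFA1, an X-linked membrane subunit needed for assembly, went from 104, 114 and 104 CPM to 31.9, 32.9 and 35.9 CPM, a 3.20-fold decrease of its mean (FDR = 2.05e-07). NDUFS4, a subunit mutated in Leigh syndrome, was at 42.6, 41.4 and 41.1 CPM without treatment. With maltonis it was at 13.9, 16 and 17.6 CPM, a log2 fold change of −1.39 ± 0.0908 (FDR = 1.76e-06). In each of these 5 genes, every maltonis-treated library lay below every not treated one, and the decrease was larger in code A than in code B (for NDUFS4, −1.61 and −1.30).

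NDUFS1 and NDUFB5 gave the opposite order of the groups. NDUFS1, the largest core subunit, which binds iron-sulfur clusters, was at 233, 233 and 232 CPM in not treated replicates 1 to 3 and 320, 337 and 351 CPM after maltonis (log2 fold change 0.53 ± 0.0561, FDR = 3.41e-05). NDUFB5, a membrane subunit, went from 82.0, 86.7 and 82.5 CPM to 117, 128 and 130 CPM (0.58 ± 0.0636, FDR = 4.33e-05). Neither changed by 2.5-fold, and both were higher in every maltonis-treated library than in any not treated one.

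Of the 4 assembly factors that the rule included, which are not part of the finished enzyme, NDUFAF1, NDUFAF2 and NDUFAF4 fell and NDUFAF3 was not called (0.01 ± 0.108). NDUFAF2 was at 17.5, 17.5 and 17.3 CPM in not treated libraries and 6.97, 7.93 and 8.59 CPM in the maltonis group. The groups did not overlap (−1.14 ± 0.0962, edgeR, FDR = 8.16e-06). NDUFAF4 went from 47.8, 41.9 and 42.6 CPM to 21.0, 22.2 and 26.2 CPM (−0.93 ± 0.0993, FDR = 3.67e-05). NDUFAF1 went from 27.2, 26.8 and 25.8 CPM to 20.4, 22.2 and 22.3 CPM (−0.29 ± 0.0715, FDR = 0.00507). This last call was lost under 4 alternatives, among them the fits without not treated replicate 2 and without maltonis replicate 2, with FDR between 0.0118 and 0.0515.

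Complex II was the exception among the complexes, with none of its 4 subunits called. SDHA, the flavoprotein that oxidizes succinate, was at 213, 234 and 222 CPM in the not treated libraries, against 213, 214 and 222 CPM with maltonis (log2 fold change −0.04 ± 0.0575, edgeR, FDR = 0.532). SDHB, the iron-sulfur subunit, was at 148, 136 and 122 CPM in not treated replicates 1 to 3 and 140, 138 and 145 CPM after maltonis (0.06 ± 0.0759, FDR = 0.490). SDHC and SDHD anchor the enzyme in the membrane. SDHD was at 114, 127 and 115 CPM and at 100, 115 and 119 CPM in the 2 groups (−0.09 ± 0.0804, FDR = 0.322). For SDHA, SDHB and SDHD the groups overlapped and the standard error was below 0.1, so that a change of the size of the complex I median would have been several standard errors. SDHC was far less precise, at 8.58, 17.6 and 19.0 CPM in not treated libraries and 11.4, 16.4 and 17.9 CPM in the maltonis group (0.00 ± 0.272, FDR = 0.995), with the code A library lowest in both groups. The summed level of complex II was 98.4% of the not treated mean, and its difference from the other complexes was not tested. SDHA has close pseudogene copies, and reads could have been split between them depending on the counting.

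In complex III most subunits fell. Of 10 genes, 7 fell, none rose and 3 were not called, with a median log2 fold change of −0.30 and a summed level at 74.2% of the not treated mean. CYC1, the cytochrome c1 subunit that carries electrons to cytochrome c, was the exception in size. It was at 199, 177 and 152 CPM in the not treated libraries, against 73.9, 69.9 and 63.6 CPM with maltonis. The groups did not overlap, and the log2 fold change was −1.34 ± 0.104 (edgeR, FDR = 4.98e-06).

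UQCR10, a small subunit, went from 136, 122 and 115 CPM to 76.2, 73.2 and 78.7 CPM (−0.71 ± 0.0737, FDR = 3.07e-05 in edgeR). UQCRC1, a core protein on the matrix side, went from 273, 272 and 258 CPM to 232, 231 and 228 CPM (−0.22 ± 0.0526, FDR = 0.00493). UQCRH, the hinge protein that docks cytochrome c1, went from 176, 164 and 164 CPM to 130, 138 and 150 CPM (−0.27 ± 0.0682, FDR = 0.00646). The groups of these 3 genes did not overlap. UQCRHL, a near copy of UQCRH, had 75.3 to 101 CPM, and reads of such copies can be divided between them. The calls of UQCRC1 and UQCRH were each lost under 5 alternatives, with FDR up to 0.122 and 0.0761 with scaling on total counts, and also without not treated replicate 2 and without maltonis replicate 2. UQCRC1 was also lost without maltonis replicate 3 and UQCRH without not treated replicate 1, with FDR of 0.0111 and 0.0101. Of the complex as a whole, 4 genes in place of 7 were called lower with total counts, and likewise 4 without not treated replicate 2.

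CYCS, cytochrome c, which carries electrons between complexes III and IV and is also released from mitochondria in apoptosis, was at 360, 382 and 362 CPM in not treated replicates 1 to 3 and 185, 220 and 218 CPM after maltonis. Every maltonis-treated library was lower than every not treated one, at 56.4% of the not treated mean (log2 fold change −0.83 ± 0.0771, edgeR, FDR = 1.56e-05). CYCS also has processed pseudogenes, which may take or give reads.

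Of the 19 genes named for complex IV, 13 had enough counts to be tested, 9 of them fell, none rose and 4 were not called, with a median log2 fold change of −0.64. Their summed level, with the untested genes, was 2046, 2101 and 1967 CPM without treatment and 1387, 1438 and 1481 CPM with maltonis, or 70.4% of the not treated mean. NDUFA4, a subunit of complex IV in spite of its name, showed the lowest fold change. It was at 56.7, 75.8 and 76.2 CPM in not treated libraries and 23.9, 30.5 and 31.8 CPM in the maltonis group, with the code A library lowest in both groups (−1.27 ± 0.142, edgeR, FDR = 4.78e-05). COX7A2L, which joins complexes III and IV into supercomplexes, went from 156, 152 and 149 CPM to 64.9, 69.9 and 75.2 CPM (−1.12 ± 0.0683, FDR = 1.19e-06).

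COX4I1, the ubiquitous form of the largest nuclear subunit, went from 331, 406 and 388 CPM to 230, 244 and 249 CPM (−0.64 ± 0.0820, FDR = 0.000115 in edgeR). Its neighbor COX4NB, which is no respiratory gene, had means of 103 ± 13.2 and 51.6 ± 4.14 CPM (SD, n = 3) and a log2 fold change of −0.99 ± 0.103 (FDR = 2.94e-05). COX7A2 went from 128, 150 and 146 CPM to 83.2, 98.0 and 108 CPM (−0.55 ± 0.102, FDR = 0.00106). COX5B, a subunit on the matrix side, went from 220, 192 and 173 CPM to 147, 153 and 148 CPM (−0.38 ± 0.0861, FDR = 0.00326). In all 4 genes the groups did not overlap, and the call of COX5B was lost with total counts, with upper quartile scaling and without not treated replicate 2, with FDR between 0.0101 and 0.0224. COX6A1, a subunit of the membrane part, was not called, at 111, 133 and 120 CPM in the not treated libraries, against 125, 120 and 138 CPM with maltonis (0.07 ± 0.0825, FDR = 0.462).

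Isoforms of complex IV that are known from lung, muscle, heart, testis or low oxygen had few or no counts in both groups. COX4I2, COX6A2 and COX7B2 had 0 counts in every library, which allows up to 0.0828 to 0.16 CPM. COX7A1 had 1 count in not treated replicate 3 and 1 in maltonis replicate 3. COX6B2 had at most 4 counts, and COX8C had 0, 1 and 1 counts without treatment and 4, 13 and 5 with maltonis, too few to enter the test. NDUFA4L2, a paralog of NDUFA4 that is induced by low oxygen, was tested at a mean of 0.842 ± 0.216 CPM without treatment and 0.714 ± 0.160 CPM with maltonis (SD, n = 3; log2 fold change −0.18 ± 0.279, edgeR, FDR = 0.566). In each pair, therefore, nearly all counts came from the ubiquitous form in both conditions, and no exchange of COX4I1 for COX4I2, of COX6A1 for COX6A2 or of COX7A2 for COX7A1 was detectable at this depth.

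**Figure D2:**
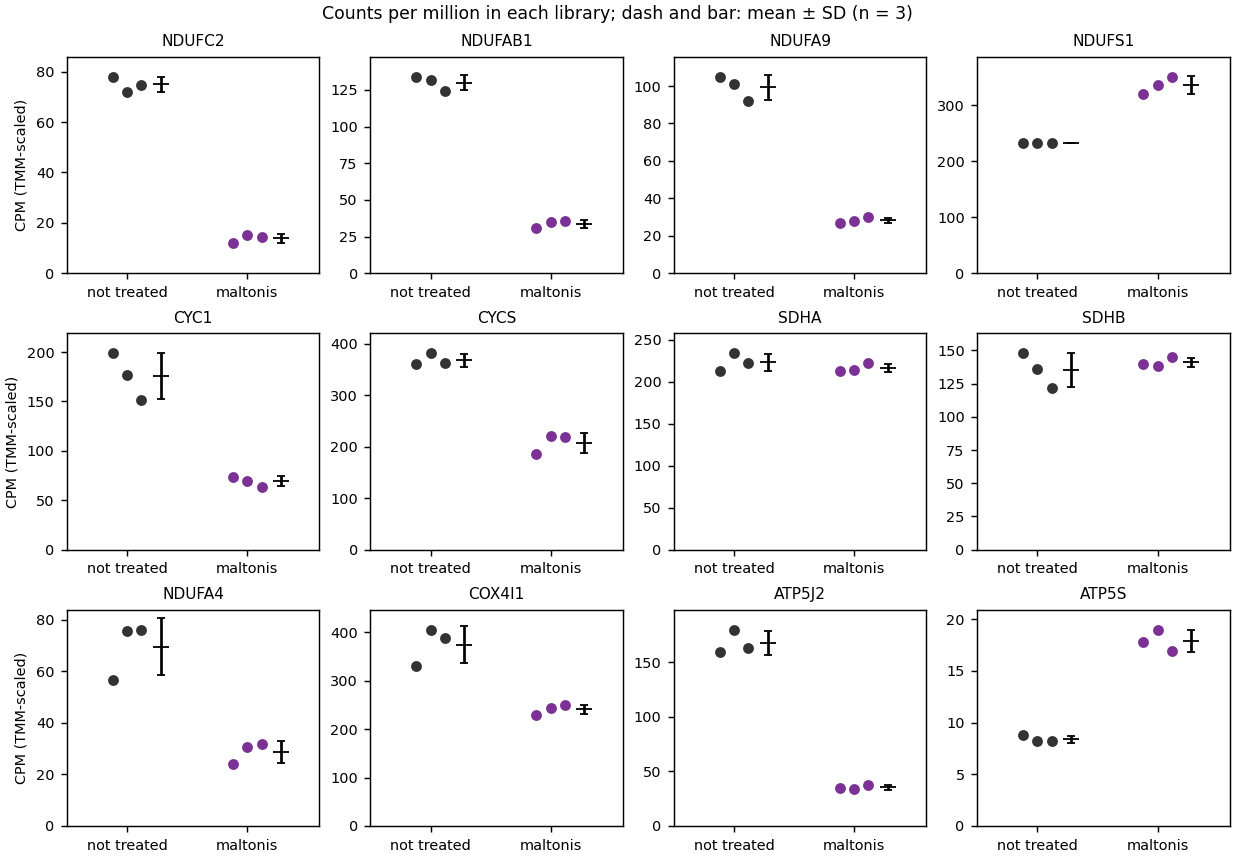
CPM after TMM scaling (y axis, from 0) of 12 genes in each of the 3 not treated (gray) and 3 maltonis-treated (purple) libraries, in the order of replicates 1 to 3, with the mean and SD beside them. The groups of SDHA and SDHB overlap, NDUFS1 and ATP5S lie higher with maltonis, and the other 8 genes lie lower.

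Of the 18 genes named for complex V, 17 were tested, 13 fell, 1 rose and 3 were not called, with a median log2 fold change of −0.41. Leaving out ATP5S and ATP5SL, which are no structural subunits, the summed level was 4637, 4636 and 4341 CPM without treatment and 3169, 3191 and 3229 CPM with maltonis, or 70.4% of the not treated mean. In the catalytic F1 part 4 of 5 genes fell, in the peripheral stalk 3 of 4, and all 3 genes of the c-ring and the 3 tested of the membrane part. ATP5B, the catalytic beta subunit, had the highest level of any of the 96 genes, at 1773 ± 137 CPM without treatment and 1311 ± 63.4 CPM with maltonis (SD, n = 3; log2 fold change −0.44 ± 0.0729, edgeR, FDR = 0.000593).

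ATP5J2, the f subunit of the membrane part, had the deepest decrease of complex V. It was at 159, 180 and 163 CPM in not treated replicates 1 to 3 and 35.0, 33.4 and 37.3 CPM after maltonis, a 4.75-fold decrease of its mean with no overlap of the groups (log2 fold change −2.25 ± 0.0750, edgeR, FDR = 6.08e-08). The readthrough locus ATP5J2-PTCD1 overlaps it and had at most 5 counts, so that the value of ATP5J2 is uncertain where reads could be assigned to either. ATP5I, the e subunit, which lies beside it in the enzyme and contributes to its dimers, went from 156, 167 and 152 CPM to 70.2, 78.4 and 80.4 CPM (−1.06 ± 0.0713, FDR = 2.15e-06). ATP5J, coupling factor 6 of the stalk, went from 61.3, 65.7 and 63.4 CPM to 52.2, 54.1 and 54.7 CPM (−0.24 ± 0.0605, FDR = 0.00583). Although its groups did not overlap, the call of ATP5J was lost under 7 alternatives, with total counts and upper quartile scaling and in every fit that left out 1 library except the one without not treated replicate 1, with FDR between 0.0113 and 0.0863.

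ATP5S, coupling factor B, was the highest of the 87 tested genes by fold change, at 8.79, 8.25 and 8.17 CPM in not treated libraries and 17.8, 19.0 and 16.9 CPM in the maltonis group. All 3 maltonis-treated libraries lay above the not treated ones (log2 fold change 1.09 ± 0.0874, edgeR, FDR = 5.9e-06). It was also one of the least abundant of the genes tested.

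The membrane ring of subunit c is encoded by 3 genes, ATP5G1, ATP5G2 and ATP5G3, whose mature proteins are identical and differ only in the import sequence that is cut off. All 3 fell, ATP5G3 most. ATP5G3 went from 389, 451 and 432 CPM to 204, 226 and 233 CPM (log2 fold change −0.94 ± 0.0773, edgeR, FDR = 7.14e-06). ATP5G1 went from 60.5, 64.2 and 59.6 CPM to 42.3, 43.4 and 41.2 CPM (−0.54 ± 0.0633, FDR = 6.7e-05). ATP5G2 went from 293, 292 and 281 CPM to 240, 243 and 242 CPM (−0.26 ± 0.0508, FDR = 0.00161), a call that was lost with total counts and upper quartile scaling (FDR = 0.0354 and 0.0146).

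As a share of the counts of the 3 c-ring genes, a ratio that no scaling of the libraries changes, ATP5G3 made up 52.3%, 55.8% and 55.9% in not treated replicates 1, 2 and 3 and 41.9%, 44.1% and 45.1% with maltonis. ATP5G2 made up 39.5%, 36.2% and 36.4% without treatment and 49.4%, 47.5% and 46.9% with maltonis. The order of these 2 genes was thus reversed in all 3 maltonis-treated libraries, while ATP5G1 stayed between 7.71% and 8.69%. In a two-sided exact permutation test over the 6 libraries, p was 0.1 for ATP5G2, 0.1 for ATP5G3 and 0.2 for ATP5G1 (0.15, 0.15 and 0.2 after adjustment over the 3 shares, which sum to 100 and are not independent). With 3 libraries against 3, 0.1 is the smallest p this test can give.

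**Figure D3:**
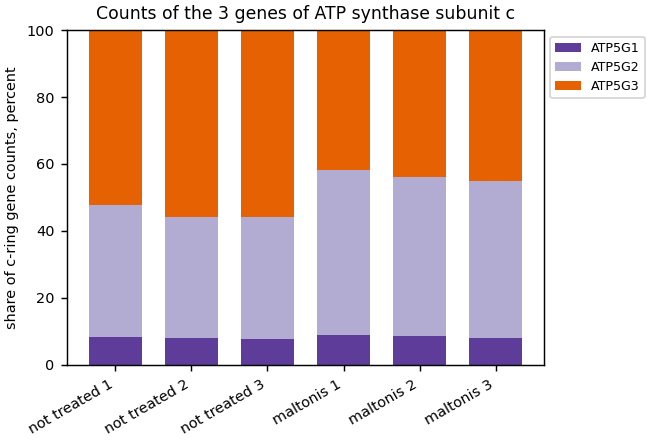
Share of the summed counts of ATP5G1, ATP5G2 and ATP5G3 that each gene contributed in each library, in percent (y axis). ATP5G3 holds over 52% in every not treated library and under 46% in every maltonis-treated library, with ATP5G2 moving the other way.

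Per length, the order of the genes within a complex was largely kept. With exons summed over all transcripts of a gene as the length, the median RPKM (CPM per kilobase of exon) of the subunits went from 35.5 to 27.4 in complex I, from 34.2 to 32.5 in complex II, from 62.8 to 35.7 in complex III, from 73.6 to 50.1 in complex IV and from 56.0 to 37.9 in complex V. The rank orders in the 2 groups had a Spearman's rho of 0.87 over 37 genes of complex I, 0.93 over 10 of complex III, 0.99 over 13 of complex IV and 0.72 over 15 of complex V. ATP5B in complex V (764 RPKM without treatment) and COX8A in complex IV (654 RPKM) led their complexes. These values depend on the length chosen, as the median of complex I was 67.4 RPKM with the longest transcript and 76.0 RPKM with exons linked to RefSeq, a length that was added after the data had been seen.

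The assembly factors and pathways around the complexes gave mixed counts. Over the 5 lists of assembly factors other than NDUFAF1 to NDUFAF4, whose median was −0.61, the medians lay between −0.18 and 0.14. Even so, BCS1L, TACO1, ATPAF1, COX16 (−3.41), C11orf83 (−2.57) and PET117 (−2.53) fell more than any subunit. Besides NDUFAF1 to NDUFAF4, 2 of 11 factors of complex I fell and 4 rose, from C17orf89 (the older symbol of NDUFAF8) at −1.09 to ECSIT at 0.84. For complex II, 1 of 4 factors fell, ACN9 (SDHAF3), by 0.51 on the log2 scale. For complex III, 3 of 6 fell and 1 rose, and for complex IV 9 of 24 fell and 6 rose. In the list of complex V, 2 of 6 fell and 3 rose, but it also holds genes that are no assembly factors. Of these, USMG5 (−0.87) and C14orf2 (−0.19, not called) encode subunits, and ATPIF1 (0.56) encodes an inhibitor of the enzyme. Counts for each list stand beside the 32.1% lower and 31.9% higher of all genes tested, and no list was tested as a set.

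BCS1L, which inserts the iron-sulfur protein UQCRFS1 into complex III, was at 82.9, 85.3 and 77.4 CPM in the not treated libraries, against 11.6, 11.3 and 10.6 CPM with maltonis (log2 fold change −2.88 ± 0.0756, edgeR, FDR = 2.55e-08). UQCRFS1 itself had a log2 fold change of −0.34 ± 0.0712. TACO1, which activates translation of the mitochondrially encoded COX1 subunit, was at 28.4, 27.3 and 25.9 CPM in not treated replicates 1 to 3 and 1.96, 2.45 and 2.41 CPM after maltonis (−3.56 ± 0.108, FDR = 4.13e-08). ATPAF1, a chaperone of the ATP synthase beta subunit, went from 46.3, 52.8 and 51.8 CPM to 4.54, 4.09 and 4.69 CPM (−3.51 ± 0.0953, FDR = 2.77e-08). In all 3 genes each maltonis-treated library lay far below each not treated one. The factors that rose most were LYRM7 (0.45) for complex III, COX20 (1.00) for complex IV and C7orf55 (FMC1, 0.86) for complex V, and COX20 was measured at only 1.12 to 3.77 CPM.

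Of 17 genes of the tricarboxylic acid cycle and pyruvate dehydrogenase, which supply the electrons, 8 fell and none rose, with a median log2 fold change of −0.12. SUCLG1, the alpha subunit of succinyl-CoA ligase, the step before complex II, went from 87.9, 85.2 and 78.7 CPM to 12.9, 13 and 14 CPM (−2.66 ± 0.0763, edgeR, FDR = 3.36e-08). At the other end of the called genes, PDHX, a structural component of pyruvate dehydrogenase, was at −0.28 ± 0.0711. Of 17 genes of iron-sulfur cluster assembly, 6 fell and 7 rose, with a median of −0.01 and the widest range of these lists. BOLA3, which helps deliver clusters to lipoic acid synthase, was at 32.9, 29.9 and 29.1 CPM in not treated libraries and 0.671, 0.626 and 0.674 CPM in the maltonis group, values above the floor of every library (−5.54 ± 0.120, FDR = 1.92e-08). BOLA1, of the same family, rose from 2.34, 2.46 and 1.78 CPM to 8.68, 8.38 and 8.77 CPM (1.98 ± 0.138, FDR = 2.67e-06).

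Among 18 tested regulators of respiratory genes and proteins of mitochondrial DNA transcription or replication, 10 fell and 4 rose. Their median log2 fold change was −0.52. GABPB1, the subunit that gives the ETS factor GABP its activating domain, went from 99.8, 94.5 and 90.2 CPM to 16.2, 17.6 and 18.2 CPM (−2.45 ± 0.0755, edgeR, FDR = 4.45e-08). Its DNA-binding partner GABPA, whose start lies 82 bases from that of ATP5J, had a log2 fold change of 0.05 (FDR = 0.595). MTERF, a termination factor of mitochondrial transcription, rose from 35.6, 31.5 and 33.5 CPM to 58.5, 60.7 and 64.9 CPM (0.87 ± 0.0744, FDR = 8.86e-06).

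**Figure D4:**
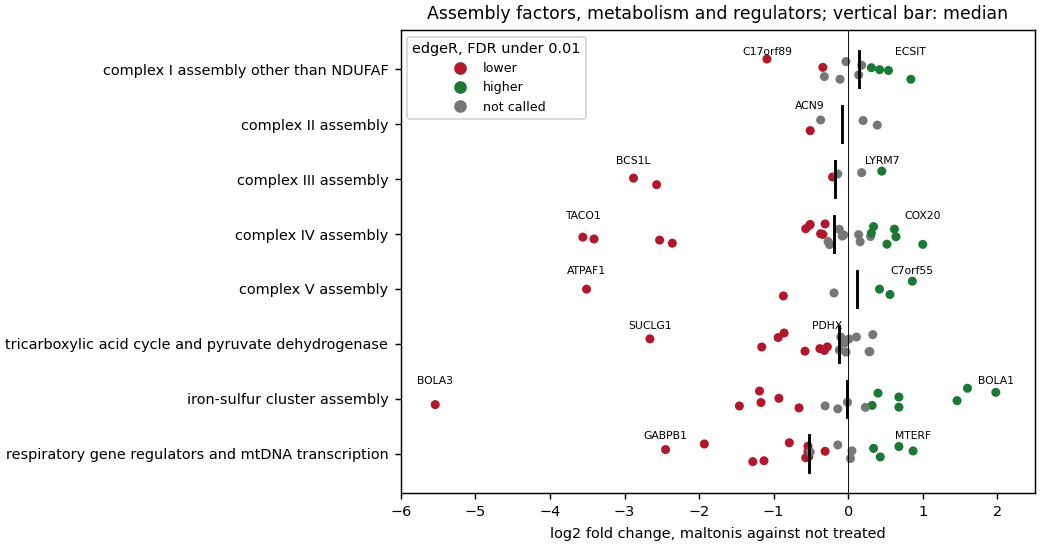
Log2 fold change, maltonis against not treated (x axis), of the tested genes of 8 lists around oxidative phosphorylation, with a vertical bar at each median and the called genes of lowest and highest fold change named; vertical scatter within a list has no meaning. Medians lie between −0.52 and 0.14, while BOLA3, TACO1 and ATPAF1 lie beyond −3.5.

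Ribosomal protein genes served for comparison with other large sets of subunits. Of 76 mitochondrial ribosomal protein genes, 34 fell (44.7%, beside 32.1% of all genes tested) and 9 rose (11.8%, beside 31.9%). Their median log2 fold change was −0.26, with values from −3.92 (MRPS2) to 0.91 (MRPL34). Of 81 tested cytosolic ribosomal protein genes, 10 fell (12.3%) and 8 rose (9.88%), with a median of 0.05 and called values from −1.36 (RPL41) to 1.24 (RPS26). MRPS2 went from 93.6, 95.4 and 83 CPM to 8.52, 5.40 and 4.44 CPM (edgeR, FDR = 4.32e-07). Lower by more than 2.5-fold were 11 of the 76 mitochondrial ribosomal protein genes, 7 of the 87 oxidative phosphorylation genes and 1 of the 81 cytosolic ones. Among all genes tested, this share was 10.4%. The difference between these sets was not tested, and copies of cytosolic ribosomal protein genes elsewhere in the genome make their counts the least certain.

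**Figure D5:**
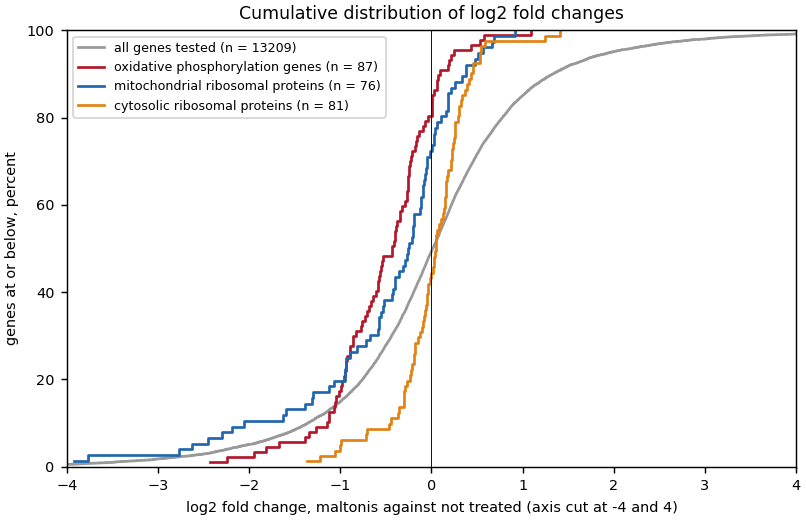
Cumulative percent of genes (y axis) at or below each log2 fold change, maltonis against not treated (x axis, shown from −4 to 4), for all 13209 tested genes, 87 oxidative phosphorylation genes, 76 mitochondrial and 81 cytosolic ribosomal protein genes. The curve of the oxidative phosphorylation genes, with its median at −0.44, lies left of that of all genes through the middle of the range and right of it at the lowest values.

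Promoter sequences from RefSeq, 250 bases before to 50 bases after the start, were on hand for 77 of the 96 genes. The NRF1 core was found in 16 of them (20.8%), beside 5.78% of all 35116 promoters of the same length. Those promoters were not limited to genes tested here, so the comparison was not matched for expression. The ETS core was found in 21 (27.3%, beside 10.3%), and 34 of the 77 held one or the other. The YY1 core was found in 22 (28.6%, beside 6.58%), but in the 250 bases before the start alone its share was 5.19%, beside 3.86%, so that most of its matches reached into the 50 bases after the start. The E-box was found in 7 (9.09%, beside 7.26%).

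Split by the call in maltonis, the NRF1 core was held by 11 of 48 genes that fell (22.9%) and by 4 of 23 that were not called (17.4%). The ETS core was held by 11 of the 48 (22.9%) and by 9 of the 23 (39.1%). The E-box share of the set (9.09%) was near that of all promoters (7.26%), and 48 of the 77 genes had fallen. A fall was thus the more common outcome in the set. All 7 genes with an E-box had fallen (14.6% of the 48, beside 0 of the 23 not called): ATP5F1, ATP5G1, ATP5I, NDUFA11, NDUFA7, NDUFS7 and UQCR11. Their decreases ran from −0.26 (ATP5F1) to −1.06 (ATP5I), within the range of the other genes that fell. These splits are descriptions of letters in a window, without a test, and a match is not a bound site. The printed promoter of SDHA shows a gene with NRF1 cores whose RNA was not called.

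Many of these genes share their promoter region with a neighbor read in the opposite direction. For 23 tested genes of the set, a tested neighbor started head to head within 1000 bases. Of these neighbors 5 fell, 9 rose and 9 were not called, beside 32.1% lower and 31.9% higher of all genes tested. Where the gene of the set fell, in 15 pairs, the neighbor fell in 4, rose in 3 and was not called in 8, and where it was not called, in 7 pairs, the neighbor rose in 6 and fell in 1. The pair COX4I1 and COX4NB, 151 bases apart, fell together and counts from both sides. NDUFA1 (−1.68) and RNF113A (0.09, FDR = 0.303), 99 bases apart, did not, and ATP5I (−1.06) and its neighbor MYL5 (1.11, FDR = 0.00176) changed in opposite directions. Next to SDHA, CCDC127 rose by 0.64 (FDR = 3.67e-05). These neighbors were chosen after their values had been seen. Across the 23 genes, Spearman's rho between the log2 fold changes of a gene and its neighbor was 0.28, a description without a test.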

How the data were processed

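RNA-seq of NB4 cells was analysed, with 3 libraries of not treated and 3 of maltonis-treated cells. The authors deposited 1 table of HTSeq counts per library, whole numbers of reads per gene symbol without normalization. TopHat, Bowtie2 and the build hg19 are named in the submitters' processing notes without versions, and whether counting used the strand is not given in the sources used here, so paralogs, overlapping and antisense genes remain uncertain.

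Counts were scaled with TMM, filtered with filterByExpr and fitted over all 6 libraries with the quasi-likelihood test of edgeR 4.0.16 in R 4.3.3, without covariates, with Benjamini-Hochberg adjustment over 13209 genes. Genes were called at an FDR under 0.01. Standard errors were derived from the log2 fold change and its F statistic. CPM values are TMM-scaled. Lengths came from GENCODE release 29 and were found for all 96 genes. All 96 symbols matched RefSeq, 74 by the current symbol and 22 by a synonym. In a test on simulated counts, edgeR recovered 16 of 65 genes changed by 0.5 on the log2 scale, 52 of 63 changed by 1 and 62 of 63 changed by 2, with 5 false calls among 12661 genes. Far fewer genes were changed in the simulation than were called in the data, and the Benjamini-Hochberg threshold depends on that number. The recovered shares therefore do not give the sensitivity of the comparison reported here.

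Replicate libraries differed by more than sampling noise (chi-square per degree of freedom between 4.15 and 33.1), so none was merged with another. The study describes biological replicates.

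Genes given with values in every library are the complex II genes, CYC1, CYCS, those called beyond 2.5-fold, the 2 highest and 2 lowest called genes of each complex, the c-ring genes and the isoform pairs. For the other lists, the called genes of highest and lowest fold change are named. COX4NB, ATP5B, GABPA, UQCRFS1, COX16, C11orf83, PET117 and the genes of the promoter paragraphs were named in addition, with their values seen. The values of a few genes are not reported here. The genes and lists were chosen with earlier results of these data known. Alternatives covered scaling with DESeq2 1.42.0 size factors, total counts or the upper quartile, the DESeq2 test, the filter, the replicate number, the name code, each library left out, an FDR under 0.05 and the gene length. Python 3.11.15, pandas 2.3.3 and scipy 1.17.1 were used.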

Additional observations from a re-analysis of the deposited data

How the results depend on the processing

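The number of oxidative phosphorylation genes called lower, 57, ranged from 45 with scaling on total counts to 64 at an FDR under 0.05, and from 46 to 60 when 1 library was left out. No gene called in the main analysis changed sign under any of the 14 refits. The number called higher, 4, was 7 with total counts and 7 at an FDR under 0.05. The number lower by more than 2.5-fold, 7, was 5 with total counts, with the upper quartile and within code B only. It was 8 without maltonis replicate 2. Without the filter on low counts 1 gene, COX8C, passed the fold criterion upwards, because genes with few counts then enter the test. The median log2 fold change, −0.44, was −0.32 with total counts and −0.35 with the upper quartile, when the median of all genes moved to 0.13 and 0.10, and it lay between −0.49 and −0.40 when 1 library was left out. The count of complex III genes called lower, 7, was 4 with total counts and between 4 and 9 with 1 library left out. The median of the complex II assembly factors, −0.09, turned to 0.03 with total counts and 0.00 with the upper quartile. Apart from the scaling and the filter, the cause was not tested. The replicate numbers were not shown to pair the libraries: the correlation of deviations between same-numbered libraries was 0.257, 0.0696 and 0.133, and replicate 2 did not correlate best with its own number. With the replicate block, 60 genes were lower and 5 higher. Of the log2 fold changes of single named genes under the alternatives, 436 were unchanged in call, 26 lost the call and no called gene reversed. Genes that were not called did change sign. SDHA ran from −0.07 to 0.08 and SDHD from −0.10 to 0.03 under the alternatives other than leaving out 1 library. Depth limits the 9 untested genes, which had at most 13 counts in any library.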
